A study of Mus musculus with 9 samples.

Results

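Wild-type extraembryonic endoderm stem cells (XEN cells, line IM8AR) were set against wild-type R1 embryonic stem (ES) cells, 1 RNA sequencing library of each, out of 9 libraries in the series. Genes entered when both libraries had a usable estimate and the larger of the 2 values was at least 1 FPKM (fragments per unit of transcript length and of mapped fragments, so levels are per length and per library), which left 13480 of the 37975 rows of the table, 12055 of them protein-coding. Per the labels, both lines are wild-type and received no doxycycline (dox). R1 ES cells were kept on mouse embryonic fibroblasts in serum and the cytokine LIF, and XEN cells in serum and medium conditioned by such fibroblasts, so the pair differs in line, cell type and culture at once. The other 7 libraries come from an ES line that overexpresses the transcription factor Sox17 under dox. A pair from that line served here as a side-by-side comparison: Sox17-XEN, for which the label lists 30 days under dox as well as 30 dox-free days but not clearly in which order, against the same line without dox. It shares no library with the wild-type pair, but it is 1 other line and not a replicate of the wild-type lines. XEN cells and R1 ES cells are each 1 line with 1 library, so no value carries a replicate error and no test was made.

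XEN cells are a culture model of the primitive endoderm, the layer of the blastocyst that forms the parietal and visceral endoderm of the yolk sac. Parietal endoderm secretes the thick basement membrane known as Reichert's membrane, and visceral endoderm takes up, digests and passes on maternal nutrients and makes carrier proteins of the kind found later in liver plasma. ES cells model the pluripotent epiblast, grow as tight epithelial colonies and depend on LIF and on a particular use of amino acids and single carbon units.

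The labels were checked against 5 defining markers. The endoderm transcription factor genes Gata4 (ENSMUSG00000021944), Gata6 and Sox7 were at 337 against 0.655 FPKM, 99.9 against 0.214 FPKM and 79.4 against 0.105 FPKM in XEN and R1 cells. The pluripotency factor genes Pou5f1 (ENSMUSG00000024406) and Nanog were at 3.22 against 1079.9 FPKM and 0.325 against 169 FPKM. All 5 stood on the side their labels give. A list of 30 fibroblast markers summed to 1393 FPKM in R1 cells, with 26 of 30 at 1 FPKM or more, and to 38.0 FPKM in XEN cells, with 7 of 30 at 1 FPKM or more and 4 listed at 0. The Sox17 line gave sums of 2837 FPKM without dox and 1079 FPKM in Sox17-XEN, so the wild-type pair differs more in fibroblast markers than the pair from the Sox17 line. Ribosomal protein genes held 24.4% of all FPKM in R1 cells and 12.8% in XEN cells, against 15.9% without dox and 13.5% in Sox17-XEN. Since FPKM are relative to the whole library, that gap moves with every other value, and its part in the differences below was not tested. Scaling both libraries to what is left without ribosomal protein genes and mitochondrially encoded genes took the median difference of all genes from 0.33 to 0.0051 log2 units, and counts on that second scale, chosen after seeing the data, are given where they turn a direction.

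Differences are given as XEN minus R1 on the log2(FPKM + 1) scale, which understates the change of low genes, and "higher" and "lower" mean at least 2 log2 units, or 4-fold in FPKM + 1. Numbers with the unit FPKM are levels, XEN before R1, and numbers in brackets or after "difference" without a unit are log2 differences. By that rule 1234 genes (9.15% of those kept) were higher in XEN and 980 (7.27%) were lower, so 55.7% of the called genes were higher. On the scale without ribosomal protein and mitochondrial genes the split was 883 higher and 1173 lower, or 42.9% higher. Of the called genes named below 19 fell under the threshold on that scale, among them Cd9, Itgav, Ext1, Me1, B2m, Smo and the Smad genes. Differences of 4 log2 units or more were seen for 178 higher and 210 lower genes, and of 6 or more for 34 and 45. The authors' confidence bounds are wide: the lower bound was above 0 for 2.12% of XEN values and 1.11% of R1 values at 1 FPKM or more. Among called genes the intervals did not overlap for 6, namely Sox7 and Sparc on the higher side and Trh, Tdgf1, Acta2 and Col5a1 on the lower side. For every other called gene the deposited intervals of the 2 libraries overlap, and 43.3% of kept rows lie at a locus that the table gives for more than 1 row, with no statement on strand.

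**Figure D1:**
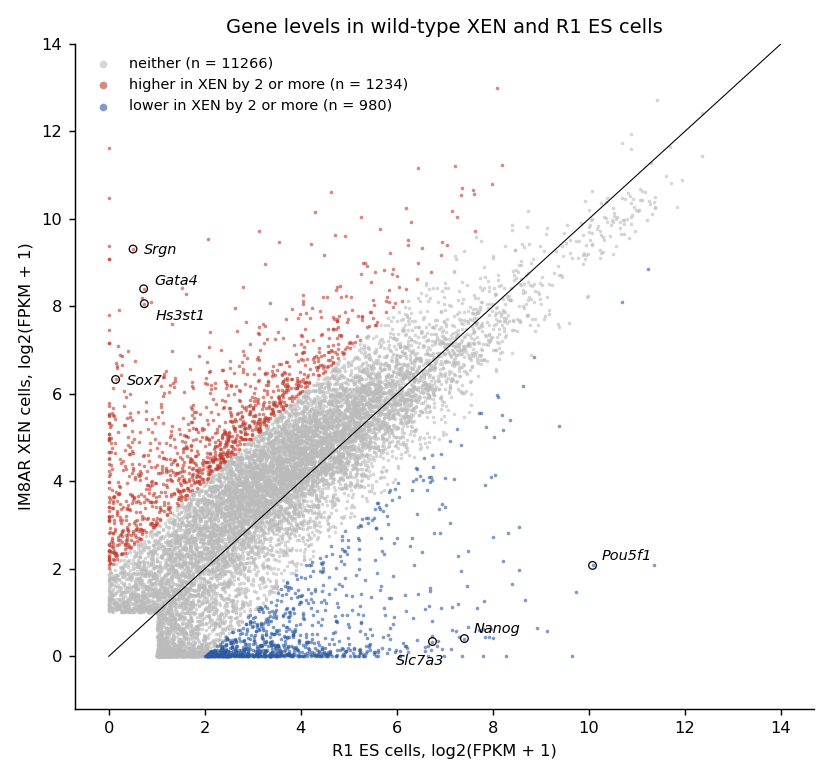
Each point is 1 of the 13480 genes kept, with its level in R1 ES cells on the horizontal axis and in XEN cells on the vertical axis, both as log2(FPKM + 1); the line marks equal levels. Red points (1234) lie 2 or more log2 units above the line and blue points (980) as far below it, with Srgn, Gata4 and Hs3st1 at the top left and Pou5f1, Nanog and Slc7a3 at the lower right.

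In the pair from the Sox17 line 862 of 13588 genes (6.34%) were higher in Sox17-XEN and 749 (5.51%) were lower than without dox. Of the 1161 genes higher in wild-type XEN that had a value in both pairs, 561 (48.3%) were also higher in Sox17-XEN, which is 70.6% of the 795 genes higher there that had a value in the wild-type pair. Of 956 lower genes, 523 (54.7%) were lower in both pairs, or 72.0% of the 726 lower in the Sox17 line that had a value in the wild-type pair. A further 175 higher and 143 lower genes differed by less than 1 log2 unit in the Sox17 line. Where values of the Sox17 line are printed below, they follow those of the wild-type pair, always as Sox17-XEN against the line without dox. They are not printed for every gene, and a gene without them is not thereby alike in both pairs.

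The 25 largest coding differences in each direction show how far the lines stand apart. All 25 on the higher side, the smallest at 5.86, were also higher by the rule in the Sox17 line, and on the lower side, with the smallest at -6.06, 21 of 25 were lower there too. Srgn, the core protein of secretory granule proteoglycans, led with 634 against 0.421 FPKM (difference 8.81). Dab2 (7.48) and Adamts9 (6.89), described below, were also among the 25. Outside the fixed lists stood Pga5, which encodes a pepsinogen (192 against 1.497 FPKM), and Spock1, a secreted proteoglycan gene (86.01 against 0.202 FPKM). On the lower side the ES cell gene Dppa5a (3.27 against 2625 FPKM) was followed by Spp1 and Pou5f1. Hspb1, a small heat shock protein gene (0.553 against 247 FPKM), Stmn2, known from neurons (0.117 against 122 FPKM), and the deubiquitinase gene Uchl1 (0.3804 against 105 FPKM) stood there outside the lists. Of the 25 lower genes, 6 are fibroblast markers, among them Col1a1 and Col1a2, and the part of fibroblast RNA in them was not tested. Col1a1 was at 252 against 597 FPKM and Col1a2 at 184 against 411 FPKM in the Sox17 line.

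The classes of interest were uneven. Of 550 kept surface genes 116 were higher and 56 lower (median 0.62). Of 368 secreted genes and genes of the secretory route 108 were higher and 88 lower (median 0.67). The list of ER folding, export and Golgi genes, most of which are not themselves secreted, gave 35 of the higher and 0 of the lower genes. Of 480 metabolic genes 71 were higher and 38 lower (median 0.27), and of 718 signalling genes 79 were higher and 72 lower (median 0.41). The higher and lower shares were 21.1% and 10.2% for surface genes and 29.3% and 23.9% for secreted genes. They were 14.8% and 7.92% for metabolic and 11% and 10% for signalling genes, against 9.15% and 7.27% of all kept genes. On the scale without ribosomal and mitochondrial genes the counts were 83 and 72 for surface, 98 and 92 for secreted, 50 and 47 for metabolic and 50 and 82 for signalling genes. The signalling counts thus turned in the same direction as those of all kept genes, which were 883 and 1173 on that scale. The bars of the share of each list past the threshold show both directions side by side.

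**Figure D2:**
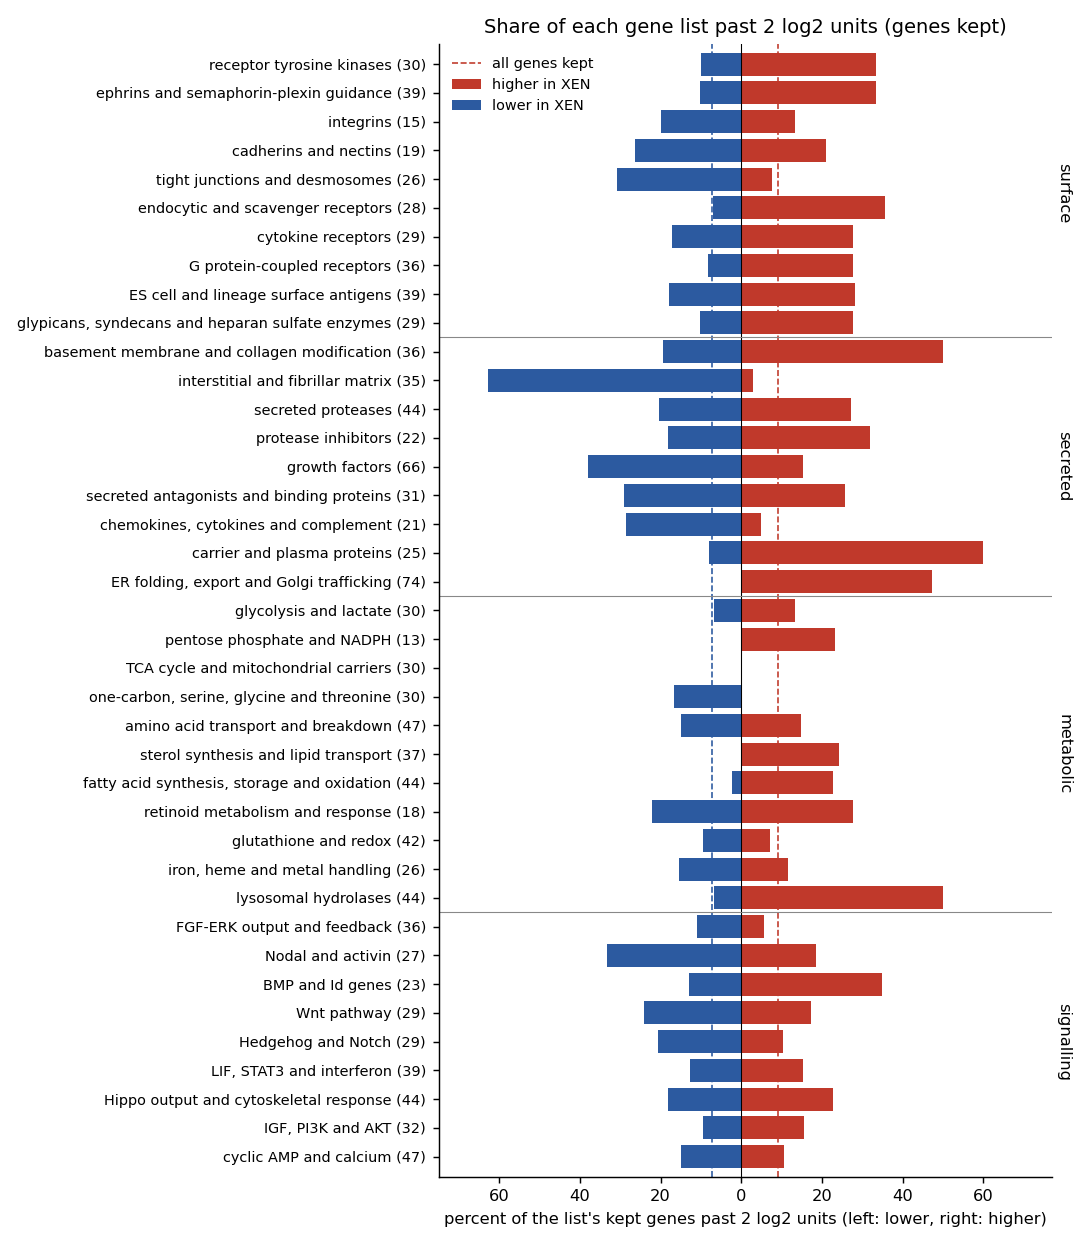
Bars give the percent of each list's kept genes (number in brackets) that were higher (red, to the right) or lower (blue, to the left) in XEN by 2 or more log2 units; dashed lines mark the 9.15% and 7.27% of all kept genes. Interstitial matrix has the longest bar to the left, carrier proteins, basement membrane and lysosomal hydrolases have the longest to the right, and TCA cycle genes have none.

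Receptors for growth factors differed in kind between the lines. Of 30 kept receptor tyrosine kinases 10 were higher and 3 lower (median 0.89). The FGF receptor genes split: Fgfr3 was at 46.1 against 0.363 FPKM and Fgfr4 at 28.9 against 0.538 FPKM, with differences of 5.11 and 4.28, whereas Fgfr1 was at 0.491 against 36.7 FPKM, a difference of -4.66. The pair from the Sox17 line had the same signs, with differences of 5.94, 4.67 and -2.54. Pdgfra, the PDGF receptor used as a primitive endoderm marker, was at 78.3 against 1.01 FPKM (5.3). Kit, the stem cell factor receptor, was at 96.03 against 4.799 FPKM (4.06), and Insr, the insulin receptor, at 32.5 against 1.46 FPKM (3.77). Receptors better known from blood vessels and phagocytes were also on the higher side: the angiopoietin receptor gene Tek was at 23.4 against 0.674 FPKM, the VEGF receptor gene Flt1 at 35.6 against 1.74 FPKM and the apoptotic cell receptor gene Mertk at 24.3 against 1.15 FPKM. Flt1 was past the threshold in the wild-type pair, with a difference of 3.74, and below it in the Sox17 line, with one of 1.31. Axl (-2.94) and Ror2 (-2.35) were lower together with the fibroblast markers, and the part of fibroblast RNA in them was not tested.

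Cytokine and G protein-coupled receptors gave 8 higher and 5 lower of 29, and 10 higher and 3 lower of 36. The LIF receptor subunit gene Lifr was at 72.4 against 3.36 FPKM, a difference of 4.07, and at 86.6 against 5.89 FPKM in the Sox17 line, so its mRNA was higher in the XEN-type library of both pairs. The growth hormone receptor gene Ghr (69.4 against 3.65 FPKM, 3.92) was high in wild-type XEN and at 11.2 against 6.496 FPKM in the Sox17 line. Among G protein-coupled receptors, the parathyroid hormone receptor gene Pth1r (ENSMUSG00000032492, chromosome 9, 110624592 to 110649649 in mm9) was at 228 against 1.98 FPKM, and the adenosine receptor gene Adora1 was at 68.9 against 0.0694 FPKM. The lysophosphatidic acid receptor gene Lpar3 was at 28.3 against 0.0944 FPKM. All 3 were higher in the Sox17 line as well, with differences of 7.55, 5.43 and 5.48. The calcitonin-family receptor partners split, with Ramp2 at 49.5 against 2.31 FPKM and Ramp3 at 0.0851 against 10.04 FPKM. The protease-activated receptor gene F2rl1 was lower in both pairs (-3.7 and -3.17).

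Several cell-cell adhesion genes of ES cells were low in XEN cells. E-cadherin, Cdh1 (ENSMUSG00000000303), the main adhesion molecule of ES colonies, was at 1.63 against 71.2 FPKM and at 2.83 against 96.8 FPKM in the Sox17 line, differences of -4.78 and -4.68. P-cadherin, Cdh3, followed with differences of -3.39 and -2.97. XEN cells had instead Cdh5, the VE-cadherin of blood vessels, at 19.8 against 0.0373 FPKM (85.1 against 0.0753 FPKM in the Sox17 line), and Cdh6 at 49.8 against 0.0712 FPKM. Cdh6 was at 1.66 against 0.176 FPKM in the Sox17 line, low in both of its libraries. Tight junction and desmosome genes were lower in 8 and higher in 2 of 26 (median -0.65), and 6 of those 8 were lower in both pairs. The claudin genes Cldn4 (0.07997 against 65.8 FPKM) and Cldn7 (0.1095 against 19.3 FPKM) were among them. The desmosomal plaque gene Dsp (20.7 against 3.05 FPKM, 2.42) and the junction scaffold gene Tjp1 (56.2 against 13.1 FPKM, 2.02) went the other way, and neither reached 2 log2 units in the Sox17 line. Integrins had 2 higher and 3 lower of 15, and 0 and 3 on the second scale. Itgav was at 59.97 against 11.4 FPKM and the laminin receptor subunit Itga3 at 47.7 against 10.9 FPKM, with differences of 2.3 and 2.03, and in the Sox17 line these were 1.31 and 1.15.

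Guidance receptors and ligands were 13 higher and 4 lower of 39, with 9 of the higher ones higher in both pairs. Robo1 and Robo2, receptors for Slit proteins, were at 30.5 against 3.23 FPKM and 24.1 against 0.414 FPKM. The semaphorin genes Sema4g (80.8 against 3.102 FPKM), Sema4c (35.6 against 2.97 FPKM) and Sema6d (11.8 against 0.407 FPKM) were higher, and Sema4d was lower (0.234 against 9.3002 FPKM). Slit3 was lower by the rule (0.0964 against 5.54 FPKM) but at 12.7 against 16.8 FPKM in the Sox17 line. The median over the guidance list was -0.28, below the 0.33 of all genes, so the higher members stand beside many that were slightly lower.

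Endocytic receptors, which visceral endoderm uses to take up maternal proteins, were 10 higher and 2 lower of 28 (median 0.97), and 9 and 4 on the second scale. The adaptor gene Dab2 was at 749 against 3.199 FPKM and Cubn, the cubilin receptor for vitamin B12 carriers and albumin, at 118 against 0.174 FPKM. Lrp2, which encodes the megalin partner of cubilin, was at 20.7 against 2.23 FPKM (2.75), and the receptor chaperone gene Lrpap1 at 866 against 49.2 FPKM (4.11). Of the list 3 were higher in the Sox17 line. The lipoprotein receptor gene Vldlr was at 47.3 against 2.54 FPKM in the wild-type pair and at 4.59 against 3.04 FPKM there, and Lrp8 was at 20.5 against 2.84 FPKM and 0.699 against 5.72 FPKM, in opposite directions. The transferrin receptor gene Tfrc was at 50.2 against 53.3 FPKM, a difference of -0.08.

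Heparan sulfate, the sugar chain on which many growth factors are held at the cell surface, showed 1 very large difference. Hs3st1 (ENSMUSG00000051022, chromosome 5, 40005174 to 40146714 in mm9), the 3-O-sulfotransferase that adds a rare sulfate to the chain, was at 266 against 0.672 FPKM and at 548 against 0.869 FPKM in the Sox17 line, differences of 7.32 and 8.2. Both XEN-type libraries stood far above both ES libraries. The chain-building polymerase genes Ext1 (101 against 20.1 FPKM) and Ext2 (84.8 against 16.6 FPKM) and the sulfotransferase gene Ndst1 (20.8 against 3.52 FPKM) were higher by 2.27 to 2.28 log2 units. The core proteins split: Gpc6 (25.4 against 0.811 FPKM), Gpc3 (77.6 against 14.4 FPKM) and Sdc4 (53.9 against 9.95 FPKM) were higher, and Sdc2 (0.3001 against 7.14 FPKM), Sdc3 (0.353 against 8.15 FPKM) and Gpc1 (0.6598 against 8.97 FPKM) lower. Against R1 cells, Gpc3 and Sdc3 changed sign when Sox17-XEN took the place of the wild-type XEN library. Ext1, Ext2, Ndst1, Gpc3 and Sdc4 fell under the threshold on the second scale. Of 29 kept genes of this list 8 were higher and 3 lower, but on the scale without ribosomal and mitochondrial genes 3 were higher and 4 lower, so the balance of this list turns with the scale.

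Several other surface proteins stood far apart. The water channel gene Aqp8 was at 104 against 0.112 FPKM and 344 against 0.0736 FPKM, and Aqp3, which also passes glycerol, was at 0.442 against 9.36 FPKM but 4.76 against 4.10000 FPKM in the Sox17 line. The prostaglandin transporter gene Slco2a1 was at 107 against 0.461 FPKM and 145 against 1.76 FPKM. Over 205 kept solute carriers 31 were higher and 10 lower (20 and 14 on the second scale), and 20 of the 31 were higher in both pairs. Among them were the phosphate transporter gene Slc34a2 (10.8 against 0.126 FPKM), the sulfate transporter gene Slc26a2 (35.9 against 2.51 FPKM) and Slc35c1 (21.7 against 1.296 FPKM), which carries GDP-fucose into the Golgi. Surface antigens were 11 higher and 7 lower of 39, and 8 and 8 on the second scale. Lower members include alkaline phosphatase, Alpl (0.0832 against 40.4 FPKM), Pecam1 (0.244 against 14.7 FPKM) and Icam1 (0.323 against 24.2 FPKM). The tetraspanin gene Cd9, though known as an ES surface antigen, was higher in XEN cells at 673 against 131 FPKM (2.35), and the peptidase genes Dpp4 (21.95 against 1.89 FPKM), Mme (24.2 against 3.16 FPKM) and Ace (12.1 against 0.138 FPKM) were higher too. In the Sox17 line Ace was at 1.07 against 0.165 FPKM, a difference of 0.83. Thy1, a fibroblast antigen as well, was at 0.105 against 47.6 FPKM and at 36.1 against 80.6 FPKM in the Sox17 line.

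Genes of the secretory route were called on the higher side alone. Of 74 kept genes for protein folding, export from the endoplasmic reticulum (ER) and Golgi transport, 35 were higher and 0 lower, with a median of 1.91 against 0.33 for all genes, and 73 of 74 lay above 0. In the Sox17 line 22 of 75 were higher and 0 lower (median 1.70). On the second scale 28 were higher and 0 lower. Kdelr3, a receptor that returns escaped ER proteins from the Golgi, was at 243 against 13.1 FPKM and 408 against 19.6 FPKM. The transcription factor gene Creb3l2, known for driving collagen export, was at 35.2 against 2.198 FPKM, and the ER degradation factor gene Sel1l at 105 against 5.85 FPKM. The stress-response regulators Atf4 (188 against 141 FPKM, 0.42) and Ddit3 (29.4 against 20.3 FPKM, 0.52) differed by less than 1 log2 unit.

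Protein sequences give another grouping of ER genes, counted in the same libraries and free to hold genes of the list above, so it is not separate evidence. Many soluble proteins that stay there end in a short signal, KDEL or a close form, and 36 kept genes encode a protein that ends in KDEL, HDEL, RDEL, KEEL, QDEL or REEL in the GENCODE translations. Of these, 23 were higher, 0 lower and 34 above 0, with a median of 2.74. In the Sox17 line 19 of the 36 were higher, with a median of 2.08. Their summed level was 16313 FPKM in XEN cells and 1803 FPKM in R1 cells. The largest differences were those of the prolyl 3-hydroxylase gene Leprel1 (126 against 0.316 FPKM), the secreted phospholipase gene Pla2g12b (98.6 against 0.132 FPKM), and the collagen chaperone gene Serpinh1 (2311 against 86.02 FPKM). The most abundant in XEN cells were the calcium-binding chaperone gene Calr (2424 against 289.8 FPKM), the disulfide isomerase gene P4hb (2356 against 148 FPKM), and Serpinh1, and all 3 were higher in both pairs. The chaperone genes Hspa5 (1517 against 194 FPKM) and Hsp90b1 (1777 against 252 FPKM), which respond to unfolded proteins, differed by 1.41 and 1.68 in the Sox17 line. The 2 members below 0 were Foxred2 (-0.21) and Leprel2 (-0.58), a prolyl 3-hydroxylase of fibrillar collagen.

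**Figure D3:**
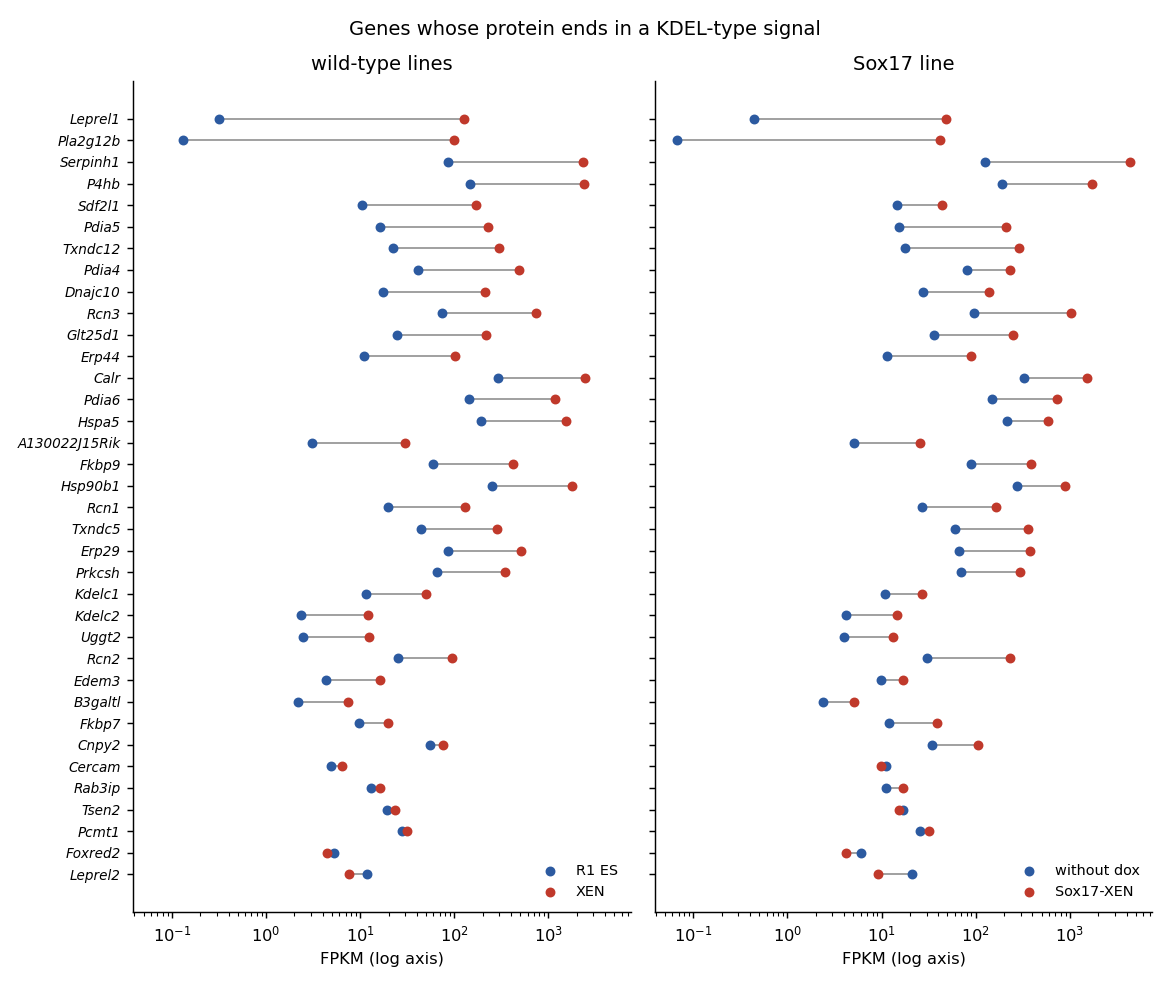
Levels (FPKM, log axis) of the 36 genes whose protein ends in a KDEL-type signal, in R1 ES and XEN cells on the left and in the Sox17 line without dox and Sox17-XEN on the right; lines join the 2 libraries of a gene. In the wild-type pair the red XEN point lies to the right of the blue R1 point for 34 genes, from Leprel1 at the top to Leprel2 at the bottom.

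Matrix genes fell into 2 sets. Of 36 kept genes for basement membrane and collagen modification 18 were higher and 7 lower, with a median of 2.02. The 5 genes Lama1, Lamb1, Lamc1, Col4a1 and Col4a2 could not be compared, because the table marks them as having too many fragments in XEN cells. In R1 cells they were at 2.40, 32.7, 33.9, 23.8 and 18.9 FPKM. The collagen prolyl hydroxylase gene P4ha1 (799 against 25.3 FPKM), the peroxidase gene Pxdn, which crosslinks collagen IV (184 against 7.81 FPKM), and the matrix gene Tinagl1 (843 against 7.72 FPKM) were higher, and differed by 3.95, 4.19 and 5.85 in the Sox17 line. Fibronectin, Fn1, was lower (31.5 against 259.8 FPKM, -3.0), and Loxl3 (-3.13) was lower in both pairs. Interstitial matrix was the reverse, with 1 higher and 22 lower of 35 (median -2.78). Col5a2 was at 0.289 against 85.2 FPKM, the fibrillar collagen gene Col3a1 at 0.116 against 36.6 FPKM and Fbln2 at 1.18 against 142 FPKM. In the Sox17 line these were at 52.6 against 147 FPKM, 90.7 against 134 FPKM and 94.4 against 319 FPKM, and 2 of 38 interstitial genes were lower. Fibroblast markers move with this result: 19 of 26 kept markers were lower in the wild-type pair and 3 of 28 in the Sox17 line. The lists overlap, since 16 genes of the interstitial list are themselves fibroblast markers, Col5a2 and Col3a1 among them. Without them 11 of 20 kept interstitial genes were lower, with a median of -2.44. The part of fibroblast RNA in the result was not tested. Against R1 cells, Sox17-XEN had an interstitial matrix median of 0.31.

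**Figure D4:**
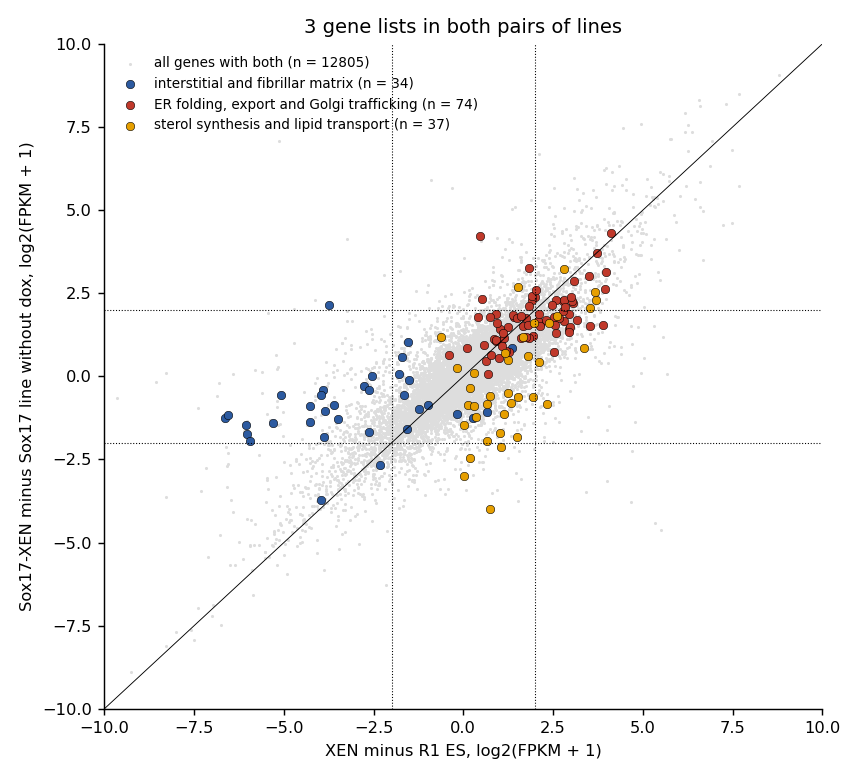
The XEN minus R1 difference is on the horizontal axis and the Sox17-XEN minus no-dox difference on the vertical axis, both in log2(FPKM + 1), with 12805 genes in grey and 3 lists coloured; dotted lines mark 2 log2 units. ER and Golgi genes (red) lie to the upper right, interstitial matrix genes (blue) spread to the left with most between -2 and 2 in the Sox17 line, and sterol genes (orange) lie mostly below the line of equal differences.

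Secreted proteases and their inhibitors were higher in 12 and 7, and lower in 9 and 4, of 44 and 22 kept genes. The ADAMTS-family protease gene Adamts9 was at 340.3 against 1.89 FPKM and 337 against 3.18 FPKM. Plat, the tissue plasminogen activator, was at 248 against 5.17 FPKM and 408 against 11.1 FPKM, while Plau, the urokinase form, was lower (0.1202 against 6.14 FPKM), so the 2 activators stood on opposite sides. The sheddase gene Adam10, whose product is bound to the membrane, was at 126 against 5.92 FPKM. Among inhibitors, Wfdc1 (33.9 against 0.138 FPKM), the complement inhibitor gene Serping1 (73.3 against 3.13 FPKM) and the tissue factor pathway inhibitor gene Tfpi (202 against 25.99 FPKM) were higher in both pairs. Spink3, a trypsin inhibitor, was at 268 against 9.196 FPKM but 7.53 against 9.35 FPKM in the Sox17 line. Serpinf1 (1.27 against 155 FPKM) was lower together with the fibroblast markers.

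Carrier and clotting proteins were 15 higher and 2 lower of 25 (median 2.97). The coagulation starter gene F3, tissue factor, was at 305 against 15.5 FPKM, and its counterpart Thbd, thrombomodulin, at 134 against 3.24 FPKM, so a starter and a brake of clotting were both high, with 804 against 14.2 FPKM and 208 against 8.77 FPKM in the Sox17 line. The chaperone gene Clu was at 504 against 8.53 FPKM, the lipid loading gene Mttp at 70.6 against 1.58 FPKM and Rbp4, the retinol carrier, at 55.2 against 0.718 FPKM. Ttr was at 21.97 FPKM in XEN cells and listed at 0 in R1 cells. Apoe differed by -0.55 (296 against 434 FPKM), and Apoc1 was lower (0.415 against 39.6 FPKM). Chemokines and cytokines were 1 higher and 6 lower of 21. Spp1, osteopontin, was at 1.77 against 856 FPKM, and the chemokine gene Ccl2 at 0.1304 against 28.6 FPKM and 3.06 against 90.996 FPKM. The alarmin gene Il33 (15.6 against 0.471 FPKM) was higher in XEN cells.

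Growth factor genes were more often lower than higher: 10 higher and 25 lower of 66 (median -1.15), with 17 of the 25 lower in both pairs. Fgf4, the ES cell signal that drives primitive endoderm in the embryo, was at 0.0455 against 39.9 FPKM, and Fgf15 and Fgf17 were listed at 0 in XEN cells against 17.4 and 15.7 FPKM in R1 cells. XEN cells had other FGF genes instead, with Fgf3 at 7.13 against 0.562 FPKM (56.3 against 0.683 FPKM in the Sox17 line) and Fgf10 at 16.8 against 0.56003 FPKM. Bmp2 was at 9.56 against 0.05495 FPKM and Bmp4 at 0.0345 against 12.1 FPKM, and the Sox17 line repeated that order with 48.5 against 0.0819 FPKM and 0.358 against 14.8 FPKM. The matricellular gene Ctgf was at 1663 against 163 FPKM. Wnt11 (90.4 against 1.29 FPKM), Nrg1 (63.4 against 1.22 FPKM) and Igf1 (23.6 against 0.335 FPKM) were past the threshold in the wild-type pair and below it in the Sox17 line, with differences of 1.52, 1.49 and 0.91. Secreted antagonists were 8 higher and 9 lower of 31. The activin blocker gene Fst (711 against 10.6 FPKM), the BMP blocker genes Nog (20.3 against 0.201 FPKM) and Bmper (37.3 against 1.49 FPKM), and the Wnt blocker gene Frzb (41.5 against 0.404 FPKM) were higher in both pairs. The thyrotropin-releasing hormone gene Trh was at 0.339 against 256 FPKM and 0.246 against 247 FPKM, and the IGF-binding gene Igfbp2 at 5.599 against 256 FPKM and 4.95 against 151 FPKM.

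The TCA cycle and the respiratory complexes held few called genes. Of 30 TCA cycle and mitochondrial carrier genes 0 were higher and 0 lower, but 26 lay above 0. Their median was 0.67 against 0.33 for all genes, and 0.31 on the second scale. Of 75 nuclear subunits of respiratory complexes I to V 1 was higher and 1 was lower (median -0.05). Each other metabolic list of 30 or more kept genes had at least 5 called members. Of 30 glycolytic genes 4 were higher and 2 lower, or 13.3% and 6.67%, near the 9.15% and 7.27% of all genes. The high-affinity glucose transporter gene Slc2a3 was at 1628 against 192 FPKM in the wild-type pair and at 217 against 212 FPKM in the Sox17 line. The lactate transporter gene Slc16a1 was at 203 against 25.99 FPKM and 134 against 23.96 FPKM. The phosphofructokinase isoform gene Pfkp was lower in both pairs (1.95 against 102 FPKM, then 5.71 against 99.8 FPKM), and Ldhb was lower in the wild-type pair (46.02 against 216 FPKM, -2.21). Hkdc1, a hexokinase-like gene, was among the largest differences, at 137 against 0.141 FPKM and 146 against 0.0767 FPKM. The malic enzyme gene Me2, which makes pyruvate and NADH in mitochondria, was at 354 against 27.02 FPKM but at 40.8 against 26.9 FPKM in the Sox17 line, and its cytosolic relative Me1 was at 39.7 against 8.04 FPKM and 92.8 against 12.3 FPKM. The dehydrogenase genes of the pentose phosphate pathway, G6pdx (-0.08) and Pgd (0.14), differed by less than 1.

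The one-carbon and serine list had 0 higher and 5 lower of 30 (median -0.46). Tdh, the threonine dehydrogenase on which mouse ES cells depend, was at 0.0943 against 23.3 FPKM and 0.152 against 23.3 FPKM. The glycine cleavage gene Amt was at 3.06 against 25.5 FPKM, and the cysteine synthesis genes Cbs and Cth at 0.596 against 9.78 FPKM and 0.853 against 60.3 FPKM. Cth was at 17.4 against 27.8 FPKM in the Sox17 line, where Cbs was at 0.1999 against 13.97 FPKM. The mitochondrial gene Shmt2 (45.7 against 77.6 FPKM) and the cytosolic gene Mthfd1 (56.99 against 82.4 FPKM), which carry the central folate steps, differed by -0.75 and -0.52.

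Amino acid transporters were called on both sides. The list had 7 higher and 7 lower of 47, and 3 and 9 on the second scale. Slc7a3 (ENSMUSG00000031297, chromosome X, 98274549 to 98281359 in mm9), a cationic amino acid carrier, was at 0.264 against 106 FPKM, a difference of -6.41, and its relative Slc7a1 was at 34.6 against 7.58 FPKM. The system A carrier gene Slc38a4 was at 0.0753 against 45.2 FPKM, and the related genes Slc38a1 (80.96 against 14.2 FPKM) and Slc38a5 (12.1 against 0.583 FPKM) went the other way. These 5 genes had Sox17-line differences of -4.09, 3.08, -5.43, 2.21 and 3.82, all in the same directions. Slc7a6, a further cationic and neutral amino acid carrier, was at 142 against 8.39 FPKM. The glutamine synthetase gene Glul was higher in the wild-type pair, at 1225 against 71.9 FPKM, with a difference of 4.07, and differed by 1.04 in the Sox17 line. The arginine synthesis gene Ass1 (0.243 against 68.9 FPKM) and the creatine kinase gene Ckb (3.91 against 154 FPKM) were lower in both pairs.

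Lipid genes were on the higher side in wild-type XEN. Sterol synthesis and lipid transport gave 9 higher and 0 lower of 37 (median 1.23), and fatty acid genes 10 higher and 1 lower of 44 (median 0.87). On the second scale the counts were 7 and 0 for sterol genes and 8 and 5 for fatty acid genes. The sterol sensor gene Insig1 was at 509 against 38.1 FPKM. The desaturase genes Scd1 (152 against 10.005 FPKM) and Scd2 (981 against 77.2 FPKM) and Lpin1 (74.96 against 2.99 FPKM), which makes diacylglycerol, were higher too. In the Sox17 line the sterol list had 5 higher and 4 lower of 37 (median -0.51). The cholesterol ester genes Soat1 (3.66 and 2.53) and Soat2 (2.8 and 3.22) and the lysosomal lipase gene Lipa (3.54 and 2.04) were higher in both pairs. Fabp3, a fatty acid carrier of the cytosol, was at 591 against 57.4 FPKM and 538 against 28.8 FPKM, while its relative Fabp5 was at 10.1 against 53.7 FPKM.

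Lysosomal hydrolases were 22 higher and 3 lower of 44, with 14 of the higher ones higher in both pairs, and 15 higher and 3 lower on the second scale. The protease gene Lgmn (legumain) was at 1575 against 23.6 FPKM and the cathepsin genes Ctsl and Ctsh at 1490.3 against 160.2 FPKM and 118 against 6.102 FPKM. The glycosidase genes Neu1 (90.9 against 9.62 FPKM) and Naglu (31.3 against 2.87 FPKM) were higher in both pairs. Hexa (1.7005 against 23.1 FPKM) and Gusb (0.493 against 12.01 FPKM) were lower in wild-type XEN, and stood at 28.2 against 24.3 FPKM and 27.1 against 14.98 FPKM in the Sox17 line. Hexa and Gusb were thus lower in wild-type XEN than in each of the other 3 libraries.

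Retinoid, redox and metal genes held a few large single differences. The retinol uptake receptor gene Stra6 was at 116 against 0.219 FPKM and 324 against 0.165 FPKM, and Cyp26a1, which breaks down retinoic acid, at 61.2 against 1.19 FPKM. The retinoic acid binding gene Crabp1 (0.212 against 31.3 FPKM) and the receptor gene Rarg (2.35 against 39.2 FPKM) were lower in both pairs. Glutathione and redox genes were 3 higher and 4 lower of 42 (median -0.35). These shares, 7.14% and 9.52%, were near the 9.15% and 7.27% of all kept genes. The secreted peroxidase gene Gpx3 (148 against 18.03 FPKM) was higher, and the quinone reductase gene Nqo1 (0.356 against 9.33 FPKM) and the carbonyl reductase gene Cbr3 (0.116 against 16.99 FPKM) lower, the lower pair in both pairs of lines. The metallothionein gene Mt2 was at 2.8997 against 372 FPKM and Mt1 at 41.1 against 329 FPKM. The Sox17-line levels of Mt2 were 12.2 against 133 FPKM and those of Mt1 75.97 against 129.9 FPKM.

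Signalling lists had calls on both sides, and their shares are to be read against the 9.15% higher and 7.27% lower of all kept genes. The Nodal and activin list had 5 higher and 9 lower of 27, or 18.5% and 33.3%. Of its lower genes 8 were lower in both pairs. The ligand genes Nodal (0.0594 against 36.8 FPKM) and Gdf3 (0.0418 against 28.4 FPKM), the coreceptor gene Tdgf1 (2.15 against 336 FPKM) and the transcription factor gene Foxh1 (0.276 against 26.7 FPKM) were all lower, as were the feedback genes Lefty1 and Lefty2 (0.521 against 209 FPKM and 0.0638 against 61.3 FPKM). The shared effector genes Smad2 (54.01 against 10.8 FPKM), Smad3 (22.3 against 4.06 FPKM) and Smad4 (76.01 against 16.9 FPKM) were higher by 2.1 to 2.22 log2 units, and differed by 1.53, -0.11 and 0.93 in the Sox17 line. On the second scale 2 genes of the list were higher and 9 lower. The effector genes lay close to the threshold, the ligands far beyond it.

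For BMP signalling 8 were higher and 3 lower of 23, or 34.8% and 13% (5 and 3 genes on the second scale). The receptor genes Bmpr2 (34.01 against 0.866 FPKM), Acvr1 (34.02 against 4.65 FPKM) and Bmpr1a (39.2 against 7.49 FPKM) were higher. The target gene Id3 was lower in wild-type XEN (1.87 against 49.2 FPKM) and at 18.5 against 30.7 FPKM in the Sox17 line. For Wnt signalling 5 were higher and 7 lower of 29, or 17.2% and 24.1%. The target and effector genes Ccnd1 (0.364 against 51.5 FPKM), Lef1 (0.0348 against 12.3 FPKM) and Notum (0.0622 against 15.4 FPKM) were lower in both pairs, whereas the effector gene Tcf7l2 (25.96 against 2.07 FPKM) was higher in both. Porcn, needed to lipidate Wnt proteins, was at 178 against 25.4 FPKM and 34.5 against 11.98 FPKM, and Ctnnb1, which encodes beta-catenin, differed by 0.78.

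In the Hedgehog and Notch list 3 were higher and 6 lower of 29, or 10.3% and 20.7% (1 and 7 genes on the second scale). A Hedgehog ligand and its targets were on opposite sides. The ligand gene Dhh was at 6.26 against 0.0951 FPKM and the signal transducer gene Smo at 38.1 against 8.67 FPKM. The transcriptional effector and target genes Gli1 (0.102 against 27.2 FPKM) and Gli2 (0.0261 against 9.18 FPKM) were lower, and differed by -3.94 and -3.4 in the Sox17 line. In the FGF and ERK list 2 were higher and 4 lower of 36, and 1 and 5 on the second scale. The main shares, 5.56% and 11.1%, were near the 9.15% and 7.27% of all kept genes. The immediate early gene Egr1 (0.7101 against 19.7 FPKM, -3.6) was lower in wild-type XEN and at 34.7 against 35.3 FPKM in the Sox17 line, and the ERK-responsive factor gene Etv5 was lower in both (-2.91 and -5.05). In the LIF, STAT3 and interferon list 6 were higher and 5 lower of 39 (15.4% and 12.8%), and 3 and 7 on the second scale. The membrane gene Ifitm1 was at 1.43 against 408 FPKM, Ifitm3 at 14.1 against 228 FPKM and the factor gene Irf1 at 1.91 against 25.2 FPKM. Class I histocompatibility genes were on the other side, with H2-D1 at 248 against 17.8 FPKM and B2m at 268 against 61.5 FPKM. H2-D1 and B2m differed by 1.58 and 1.62 in the Sox17 line.

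The insulin and PI3K list had 5 higher and 3 lower of 32, or 15.6% and 9.38% (3 and 4 genes on the second scale). Besides Insr, the docking protein gene Irs2 was at 22.7 against 1.78 FPKM. Eras, a Ras-like gene of ES cells, was at 0.0914 against 36.6 FPKM and 0.0195 against 20.7 FPKM. Igf2 was at 0.0279 against 10.9 FPKM in the wild-type pair and at 15.8 against 8.44 FPKM in the Sox17 line. Hippo and cytoskeletal genes were 10 higher and 8 lower of 44, or 22.7% and 18.2% (8 and 8 genes on the second scale). The keratin genes Krt8 (426 against 37.1 FPKM) and Krt18 (333 against 25.7 FPKM), which mark simple epithelia, were higher in both pairs, and Krt19 was at 277 against 15.5 FPKM and 11.9 against 5.98 FPKM. The angiomotin genes Amot (26.1 against 2.099 FPKM) and Amotl2 (232 against 42.7 FPKM) were also higher. Smooth muscle genes such as Acta2 (1.15 against 204 FPKM) and Tagln (1.403 against 226 FPKM) were lower, together with the fibroblast markers. In the cyclic AMP and calcium list 5 were higher and 7 lower of 47, or 10.6% and 14.9%, against 9.15% and 7.27% of all kept genes. The inhibitory G protein gene Gnai1 (50.01 against 4.64 FPKM) and the adenylyl cyclase gene Adcy6 (33.5 against 3.62 FPKM) were higher in both pairs beside the receptor gene Pth1r.

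Of 305 kept Zfp zinc finger genes 10 (3.28%) were higher and 11 (3.61%) lower, below the 9.15% and 7.27% of all kept genes. On the second scale 6 of these genes were higher and 15 lower. Among them Zfp42, the ES marker Rex1, was at 6.102 against 316 FPKM, Zfp296 at 0.261 against 16.8 FPKM and Zfp428 at 4.31 against 50.8 FPKM, and Zfp9 was at 14.6 against 0.944 FPKM. Of 22 forkhead genes 6 were higher and 4 lower (3 and 4 on the second scale), with the endoderm factor gene Foxa2 at 41.8 against 0.859 FPKM and the ES cell factor gene Foxd3 at 0.0148 against 10.3 FPKM. Of 24 protein tyrosine phosphatases 6 were higher and 2 lower, led by Ptpn14 (91.9 against 4.16 FPKM, 101 against 14.1 FPKM in the Sox17 line), a regulator of the YAP protein.

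A grouping by protein sequence needs no list of functions, but it was counted in the same libraries and shares genes with the lists. It is therefore not separate evidence for their counts. Translated coding sequences were sorted by hydrophobic segments (a window of 19 residues with a mean Kyte-Doolittle score of at least 1.6), a segment that starts within the first 30 residues standing for a signal peptide. Of 684 kept genes with an N-terminal segment alone, 20.6% were higher and 12.9% lower. That is the pattern of secreted proteins but also of soluble proteins of the ER and lysosome, which were not separated here. With 1 further segment, the pattern of many single-pass receptors, 23.2% of 396 were higher and 9.6% lower. With no segment 6.44% of 8102 were higher and 6.16% lower. The corresponding shares in the Sox17 line were 15.6% and 7.31%, 16.3% and 7.42%, and 4.42% and 4.97%. Genes with an N-terminal segment alone held 8.88% of the FPKM of XEN cells and 3.33% of that of R1 cells, and genes with no segment 69.1% and 82.1%. Without the 20 most abundant genes of each library the first of these shares was 6.66% in XEN and 3.26% in R1 cells. In the Sox17 line the shares were 7.53% against 4.79% with an N-terminal segment alone and 68.5% against 76.0% with no segment. Ribosomal protein genes held 12.8% of all FPKM in XEN and 24.4% in R1 cells, and their part in these shares was not tested. The sorting is coarse: it caught 116 of 227 members of the secreted lists (51.1%), and all 48 receptor tyrosine kinases had a segment.

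Promoter windows were read from RefSeq (GRCm38.p6, from 250 bases before to 50 after a gene's start, first window listed for a symbol) for 8604 kept genes. The octamer ATGCAAAT, the word bound by Pou5f1-type factors, was present on either strand in 3.85% of 545 lower genes, 1.15% of 785 higher genes, 1.37% of all kept genes and 1.75% of all 27025 windows. Among genes lower in both pairs the share was 4.36% of 321. The letters AGATAA counted as a GATA word on either strand. So did TGATAA and, as the last form searched, AGATAG. Such words were in 13.1% of higher, 13.9% of lower and 14.1% of all kept windows, and in 25.5% of all windows. SOX words (ACAAAG or ACAATG, either strand) were in 20%, 22.02% and 19.4%, and in 28.8% of all windows. The KLF word CCACCC was in 42.8% of higher, 46.1% of lower and 37.4% of all kept windows, and in 30.9% of all windows. For the E-box word CACGTG the shares were 10.7%, 9.36%, 10.5% and 7.24%. The ratio of observed to expected CpG had a median of 0.587 for lower, 0.734 for higher and 0.770 for all kept genes. A match is a description of letters and shows no binding. By the shares above, GATA and SOX words were no more frequent in higher than in lower windows. The lower gene Pou5f1 held a GATA word, the lower gene Nanog a SOX word and the higher gene Pfkfb3 an octamer. The stretches below are thus examples and not a pattern of the sets. They hold octamers upstream of 3 Zfp genes that were lower, and GATA or SOX words upstream of 4 genes that were higher. Each is written 5' to 3' along the gene with each word or its reverse complement in capitals.
Zfp42 (chr8:43307173-43307210, minus strand): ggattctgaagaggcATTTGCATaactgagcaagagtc
Zfp296 (chr7:19577161-19577198, plus strand): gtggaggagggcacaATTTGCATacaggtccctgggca
Zfp428 (chr7:24506947-24507038, plus strand): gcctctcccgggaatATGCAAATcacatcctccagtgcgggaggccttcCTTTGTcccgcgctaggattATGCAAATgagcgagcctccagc
Nxf7 (chrX:135598951-135598986, minus strand): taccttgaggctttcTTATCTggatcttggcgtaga
Stra6 (chr9:58128890-58128925, plus strand): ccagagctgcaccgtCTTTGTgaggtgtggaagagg
Pth1r (chr9:110747163-110747198, minus strand): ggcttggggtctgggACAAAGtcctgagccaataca
Nepn (chr10:52391358-52391583, plus strand): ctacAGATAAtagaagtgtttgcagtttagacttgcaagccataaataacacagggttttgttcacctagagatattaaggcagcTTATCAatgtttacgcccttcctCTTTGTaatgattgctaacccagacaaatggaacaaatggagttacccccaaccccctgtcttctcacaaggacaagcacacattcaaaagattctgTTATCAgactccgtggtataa

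The printed stretches of Zfp42, Zfp296 and Zfp428 begin at positions -201, -126 and -140 from the gene's start, and that of Zfp428 holds 2 octamers with a SOX word between. The levels of Zfp42 in the Sox17 line were 7.52 against 248 FPKM, those of Zfp296 1.85 against 28.9 FPKM and those of Zfp428 5.05 against 33.3 FPKM, so all 3 were lower there too. Nxf7, an RNA export factor gene on the X chromosome, was at 293 against 0.628 FPKM, and Nepn, a small secreted proteoglycan gene, at 28.5 against 0.0385 FPKM. Both were higher in the Sox17 line, with differences of 6.81 and 2.82.

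Differences were also set out by chromosome, over 7006 protein-coding genes with at least 5 FPKM in both libraries, whose median was 0.44. Chromosome 16 had a median of 0.94 (235 genes), chromosome 19 one of 0.84 (266 genes), and chromosomes 12 and 1 medians of 0.77. Chromosomes 6 and 11 had 0.63. Chromosomes 13 and 17 were lowest, at 0.19 each. On chromosome 16, 18.8% of 378 kept coding genes were higher and 4.76% lower, against 9.15% and 6.69% of all kept coding genes. The medians of chromosomes 16 and 19 in the Sox17 line were 0.39 and 0.34, close to the 0.35 of all genes there, and chromosome 12 had 0.72.

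Setting each library against another shows where the chromosome medians move. XEN minus the Sox17 line without dox gave 0.995 for chromosome 16, 0.79 for chromosome 19, 0.77 for chromosome 6 and 0.75 for chromosome 1, against 0.44 for all genes. XEN minus Sox17-XEN gave 0.64 for chromosome 16, 0.50 for chromosome 19, 0.39 for chromosome 6 and 0.37 for chromosome 1, against 0.05 for all, and -0.00066 for chromosome 12. R1 minus the Sox17 line without dox lay between -0.09 and 0.05 for every autosome and the X chromosome. In XEN minus Sox17-XEN, chromosome 8 followed chromosome 1 at 0.29. The raised medians of chromosomes 16, 19, 6 and 1 were thus seen in comparisons that hold the wild-type XEN library, and that of chromosome 12 in comparisons that hold either XEN-type library. These comparisons share libraries. Named genes on chromosome 16 include Leprel1, Sdf2l1 and Pdia5, whose differences were 6.59, 3.89 and 3.74, with 5.09, 1.54 and 3.71 in the Sox17 line. Whether chromosome-wide shifts have a part in single differences was not tested.

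**Figure D5:**
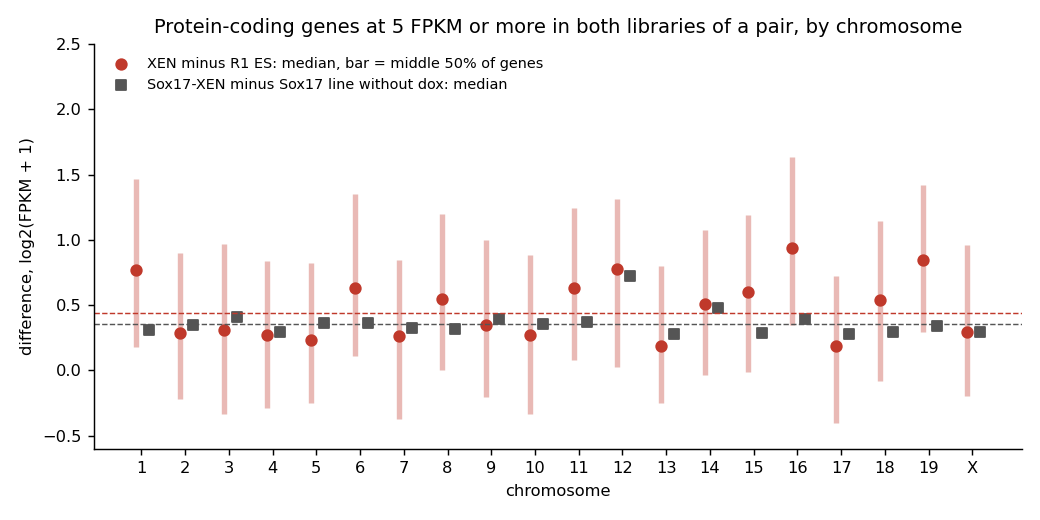
Median difference (log2 units, red points, with bars for the middle 50% of genes) by chromosome for XEN minus R1 cells, and for Sox17-XEN minus the Sox17 line without dox (grey squares); dashed lines are the medians of all genes, 0.44 and 0.35. Chromosome 16 is highest in the wild-type pair at 0.94, and chromosome 12 is highest in the Sox17 line at 0.72.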

How the data were processed

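RNA sequencing libraries made with a TruSeq kit from Trizol-extracted total RNA were used for 4 of the 9 libraries, 1 per group. The deposited values are FPKM per gene with confidence bounds and a status, which the authors computed with TopHat2 2.0.11, Cufflinks 2.1.2 and Cuffdiff on mouse mm9, per the submitters' processing notes. Read counts and depth are not given, so no count model, interval or detection limit could be computed. Values marked OK were compared as log2(FPKM + 1), with a maximum of at least 1 FPKM in the pair and a call at 2 log2 units. There is no replicate and no test.

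The members of the comparison and the gene lists were chosen with earlier results of these data known. Named genes are list members with the largest differences (up to 8 per list and direction), members at like levels with at least 20 FPKM in both, and the 25 largest coding differences each way. Calr, Fgf3, Foxred2, Hsp90b1, Hspa5, Leprel2, Mertk and the genes with opposite signs in the 2 pairs were named after their values were seen. Results of some genes are not reported here. Duplicate symbols were represented by their most abundant row. Protein features come from GENCODE coding sequences, joined by gene identifier. Promoter letters come from RefSeq (GRCm38.p6), joined by symbol, with no coordinate converted. Calculations used Python 3.11.15, numpy 2.4.6, pandas 2.3.3 and matplotlib 3.10.9 and were tested on simulated data. Alternatives changed the pseudocount, filter, threshold, scale, ES or XEN library, locus overlap and sequence windows.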

Additional observations from a re-analysis of the deposited data

Results flagged for a closer look

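Of 597 called coding list members with a value in both pairs, 5 given here differed in opposite directions, by at least 1 log2 unit in the Sox17 line. With 1 library a group the difference between the pairs was not tested. Fbln1, a matrix protein gene, differed by -3.73 in the wild-type pair (0.421 against 17.8 FPKM) and by 2.15 in the Sox17 line (103 against 22.5 FPKM). Ptn, a heparin-binding growth factor gene, was listed at 0 in XEN cells against 5.51 FPKM in R1 cells, -2.70 on a scale that here depends on the pseudocount, and was at 66.8 against 25.4 FPKM in the Sox17 line. Both stand beside fibroblast markers that were low in wild-type XEN alone, whose part was not tested.

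The other 3 were higher in wild-type XEN and lower in Sox17-XEN. The lipoprotein receptor gene Lrp8 differed by 2.49 and -1.98. The membrane serine protease gene Prss8 differed by 2.23 (39.6 against 7.68 FPKM) and -1.10 (3.45 against 8.57 FPKM). The glutamate transporter gene Slc1a3 differed by 2.26 (31.5 against 5.80 FPKM) and -1.93 (1.05 against 6.82 FPKM).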

How the results depend on the processing

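Counts of higher and lower genes, 1234 and 980 as reported, became 591 and 304 with a pseudocount of 5, 3848 and 2390 at a difference of at least 1, and 445 and 456 at a difference of at least 3. They became 721 and 608 over rows that share no locus, and 2 and 4 where the deposited intervals do not overlap. With a pseudocount of 0.1 the lower count was 1945. The percent of called genes that were higher (55.7) was 66.0 with a pseudocount of 5, 40.2 with all differences rescaled to a median of 0, 33.3 with intervals that do not overlap and 42.9 when scaled without ribosomal protein and mitochondrial genes, an alternative chosen after seeing the data. The median difference of all genes (0.33) was 0.22 with a pseudocount of 5, 0 with no filter on low values or rescaled, 0.50 with a maximum of 5 FPKM or more, 0.21 with the maximum over all 9 libraries and 0.0051 when scaled. With a window mean of 1.9 the lower share of the N-terminal class was 9.62% in place of 12.9%.

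Against R1 cells, Sox17-XEN in place of the wild-type XEN library gave medians of 0.31 for interstitial matrix, 0.26 for fibroblast markers and 0.12 for collagens, all below 0 in the wild-type pair. Single genes turned as well: Col1a1 to 0.76, Col1a2 to 0.38, Col3a1 to 1.29, Col5a1 to 0.046, Egr1 to 0.79, Fbln1 to 2.46, Ptn to 3.38, Gusb to 1.11, Hexa to 0.28, Igf2 to 0.49, Sdc3 to 0.21 and Slit3 to 1.06 from the lower side, and Gpc3 to -0.95, Krt19 to -0.36, Lrp8 to -1.18, Prss8 to -0.96, Slc1a3 to -1.73 and Spink3 to -0.26 from the higher side. The cause was not tested. Of the 249 genes named with a difference, 238 of them called, 45 of 247 fell below the threshold with that library and a further 18 changed sign, and 19 fell below it with the Sox17 line without dox as the ES library. With a pseudocount of 5 the number that fell below it was 54, rescaled to a median of 0 it was 17, and scaled without ribosomal protein and mitochondrial genes it was 19 (B2m, Bmpr1a, Cd9, Ext1, Ext2, Gpc3, Itga3, Itgav, Me1, Ndst1, Prss8, Sdc4, Slc1a3, Slc7a1, Smad2, Smad3, Smad4, Smo and Tjp1), while a pseudocount of 0.1, no filter or coding genes only changed none. No paired analysis was possible because each group has 1 library. Depth is not given, so differences of genes near 1 FPKM have no known precision.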
